A study of Mus musculus with 6 samples.

Results

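The 8 genes described here encode the proteins that decide whether antioxidant response elements are used: Nfe2l2 (NRF2), Nfe2l1 (NRF1), Keap1, Sqstm1 (p62), Bach1, Maff, Mafg and Mafk. They were chosen by function, as a fixed set of symbols, and each was read from its brightest probe set (a group of probes summarised to 1 value) with a single symbol. All 8 were found among the 22180 genes of the table. The samples were 6 Affymetrix arrays of total RNA from C2C12, a mouse myoblast line grown in standard medium. In 3 of them Htt, the huntingtin gene, had been targeted with pooled siRNAs (small interfering RNAs), and the other 3 had a scramble siRNA as negative control. The labels write "HTT KO" for the treated samples although the protocol describes siRNA, so they are called Htt siRNA or knockdown arrays. By its title the study asks about huntingtin in muscle differentiation. Neither the hours after transfection nor the culture origin of the replicates is given, so every p-value measures the spread between these arrays, which may be technical. In RNA of whole cultures, fewer cells of a type and less RNA per cell cannot be told apart.

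NRF2 is a transcription factor that is made continuously and destroyed at once in unstressed cells. KEAP1 holds it for a cullin ubiquitin ligase, and electrophiles that modify KEAP1 release it. NRF2 then pairs with a small MAF protein, which binds DNA but cannot activate by itself, and switches on genes of glutathione synthesis, quinone reduction and iron storage. BACH1, a heme-sensing repressor, uses the same small MAF partners and sites. NRF1, a relative of NRF2 anchored in the endoplasmic reticulum, drives proteasome genes when the proteasome is short. p62, an autophagy receptor, binds KEAP1 and can carry it to the autophagosome, and its gene is itself an NRF2 target.

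Promoters are shown because several of these genes are known to feed back on one another through the element they control. RefSeq's promoter table (build GRCm38.p6) held 14 windows for the 8 genes, each of 300 bases, from 250 before to 50 after an annotated start site. The core letters of the element, TGACNNNGC, were searched on both strands. They occurred in 4 of the 14 windows, those of 4 different genes (Nfe2l2, Mafg, Mafk and, at 1 of its 3 start sites, Maff), against 12.4% of all 32851 windows. The match began at position -240 for Nfe2l2, -222 for Mafg, -112 for Maff and -13 for Mafk, counted from the start site along the gene's strand. The AP-1 core TGANTCA and the amino acid response letters TGATGNAAT, the latter known from stress genes under ATF4, had 0 matches in the 14 windows, against 7.81% and 0.965% of all windows; TGANTCA can overlap the antioxidant element. The 250 bases before the start site follow for the 4 genes with a match and for Sqstm1, which had none but is described below beside Mafk. Capitals mark the match, which lies on the opposite strand in Mafg and Mafk. The windows are chr2:75704664-75704913 (minus strand), chr11:120633548-120633797 (minus), chr15:79346371-79346620 (plus), chr5:139791286-139791535 (plus) and chr11:50210821-50211070 (minus).
Nfe2l2: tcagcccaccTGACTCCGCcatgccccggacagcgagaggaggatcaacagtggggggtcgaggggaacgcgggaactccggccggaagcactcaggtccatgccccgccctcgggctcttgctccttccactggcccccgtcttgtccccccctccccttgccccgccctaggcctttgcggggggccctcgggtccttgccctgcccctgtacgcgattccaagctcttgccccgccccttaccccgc
Mafg: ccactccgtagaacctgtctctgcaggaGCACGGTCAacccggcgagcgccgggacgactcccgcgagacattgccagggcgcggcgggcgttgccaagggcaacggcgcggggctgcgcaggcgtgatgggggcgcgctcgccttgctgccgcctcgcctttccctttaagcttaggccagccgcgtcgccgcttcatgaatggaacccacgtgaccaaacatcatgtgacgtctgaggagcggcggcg
Maff: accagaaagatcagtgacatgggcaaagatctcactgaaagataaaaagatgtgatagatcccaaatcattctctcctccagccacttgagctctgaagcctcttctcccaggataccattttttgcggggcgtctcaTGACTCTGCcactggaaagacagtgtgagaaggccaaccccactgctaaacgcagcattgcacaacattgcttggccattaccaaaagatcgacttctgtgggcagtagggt
Mafk: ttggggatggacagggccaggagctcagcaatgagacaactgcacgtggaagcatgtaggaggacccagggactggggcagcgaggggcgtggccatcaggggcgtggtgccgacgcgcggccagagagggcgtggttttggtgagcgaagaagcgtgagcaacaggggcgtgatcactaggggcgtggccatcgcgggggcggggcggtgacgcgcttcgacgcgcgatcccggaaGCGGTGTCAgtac
Sqstm1: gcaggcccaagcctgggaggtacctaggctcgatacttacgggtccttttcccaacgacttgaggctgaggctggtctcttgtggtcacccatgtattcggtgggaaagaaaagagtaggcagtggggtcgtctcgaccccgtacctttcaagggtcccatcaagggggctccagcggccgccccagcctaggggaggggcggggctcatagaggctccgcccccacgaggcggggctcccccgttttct

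Htt, the siRNA target, was lower in every knockdown array than in every control. It averaged 4.54 ± 0.10 with Htt siRNA and 5.64 ± 0.08 with scramble on the log2 scale (mean ± SD, n = 3 each), which is 46.6% of the control level. Its adjusted p in limma was 0.0559. All 10 myoblast markers lay above the median gene level of 2.95 (their mean was 7.80 to 7.91 in the knockdown arrays and 7.42 to 7.69 in the controls). Of the markers of other cell types, 2 of 6 fibroblast, 1 of 5 adipocyte, 0 of 6 endothelial, 2 of 6 macrophage and 2 of 5 epithelial genes did so. The means of these lists, in the same order, were 3.51 to 3.62, 2.91 to 3.03, 2.26 to 2.31, 2.61 to 2.68 and 2.88 to 2.97 in the knockdown arrays. In the controls they were 3.39 to 3.43, 2.96 to 3.08, 2.16 to 2.23, 2.59 to 2.61 and 2.89 to 2.90. The myoblast, fibroblast, endothelial and macrophage means did not overlap between the groups. Fold changes were positive in 9, 4, 6 and 5 of these genes and negative in 1, 2, 0 and 1. The fibroblast list held Col1a1 at 1.17 ± 0.23 and Pdgfra at -0.26 ± 0.11 (log2 fold change ± standard error). The macrophage list held Lyz2 at 0.51 ± 0.14 and Cd68 at -0.39 ± 0.14. The list means were not read as cell numbers, and their part in the results below was not tested.

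No regulator differed between Htt siRNA and scramble past the threshold. Limma called 0 of the 8 at an adjusted p under 0.05, where it called 0 (0%) of the 22180 genes in either direction. At an unadjusted p under 0.05 the count was again 0 of 8, against 5.72% of all genes higher and 5.14% lower. The log2 fold changes (Htt siRNA minus scramble) ran from -0.22 for Maff to 0.37 for Nfe2l1, with a median of -0.01 against 0.03 over all genes, and 4 were positive and 4 negative. In 1 of the 8, Maff, the groups did not overlap, with the knockdown lower; all genes showed this in 5.91% downwards and 10.1% upwards. Without Htt siRNA replicate 2, 540 genes (2.43%) passed the adjusted threshold, and 0 of the 8 regulators were among them.

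**Figure D1:**
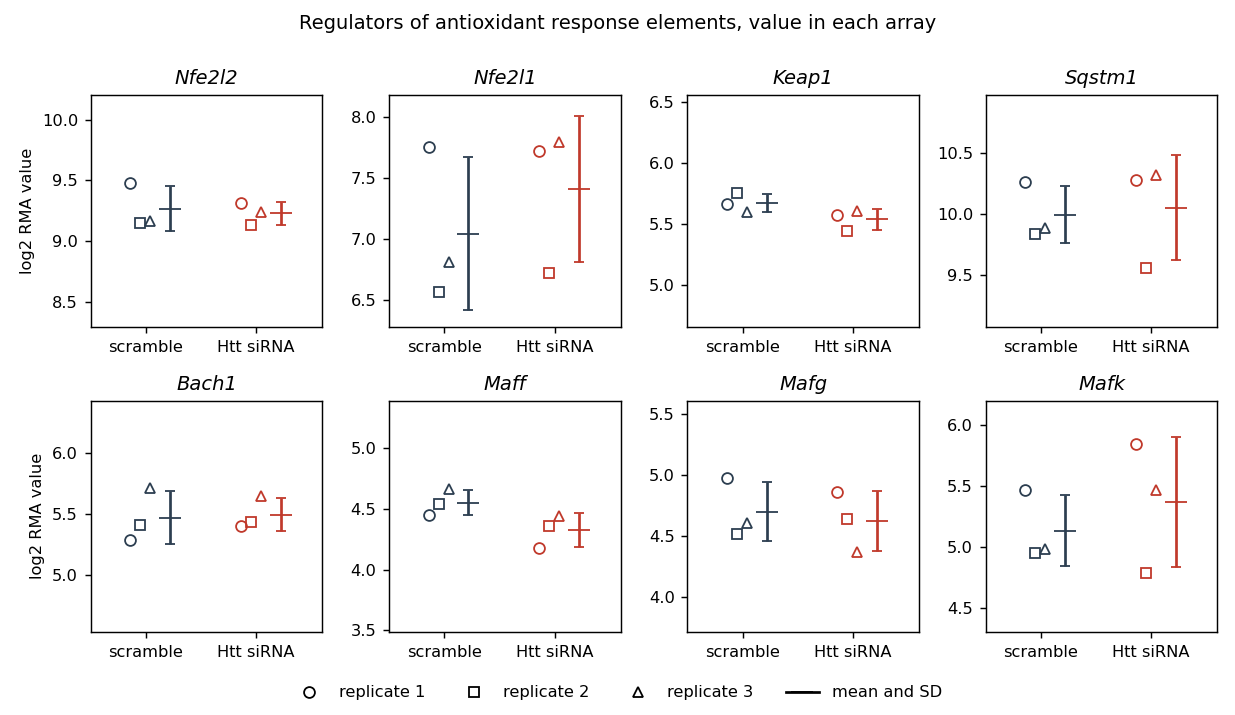
Log2 RMA value of each regulator in each array, scramble in blue and Htt siRNA in red, with mean and SD (n = 3) beside the points; every panel spans the same height on the y axis. Nfe2l1, Sqstm1 and Mafk are spread widely within each group, and Maff alone has groups that do not overlap.

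Nfe2l2, the gene of the main activator, was nearly level. It stood at 9.31, 9.13 and 9.24 in Htt siRNA replicates 1, 2 and 3 and at 9.48, 9.15 and 9.17 in scramble replicates 1, 2 and 3. The groups overlapped, with the highest array a control (scramble replicate 1) and the lowest a knockdown (Htt siRNA replicate 2). Its log2 fold change was -0.04 ± 0.11 (moderated standard error, adjusted p = 0.930 in limma), with a 95% interval from -0.30 to 0.23. In linear terms the knockdown level was 97.5% of control, with an interval from 81.1% to 117%. That interval bounds the messenger RNA only, since NRF2 is known to be controlled mainly through its protein.

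Nfe2l1 varied far more between arrays of a group than between the groups. Its values were 7.72, 6.72 and 7.80 with Htt siRNA and 7.76, 6.57 and 6.82 with scramble. In each group some arrays lay near 7.7 to 7.8 and the rest about 1 log2 unit lower, so the groups overlapped. Nfe2l1 had a log2 fold change of 0.37 ± 0.37 (adjusted p = 0.755 in limma), with a 95% interval from -0.49 to 1.22. Leaving out 1 array moved it between 0.13 (without scramble replicate 2) and 0.72 (without scramble replicate 1). The spread within groups (residual SD) was 0.62, larger than in 99.3% of genes.

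Keap1, the gene of the sensor, had the smallest within-group spread of the 8 (residual SD 0.08). It read 5.57, 5.44 and 5.60 with Htt siRNA against 5.66, 5.75 and 5.60 with scramble. The third replicates of both groups were almost equal, while the other knockdown values lay below all controls. Keap1 had a log2 fold change of -0.13 ± 0.09 (adjusted p = 0.630 in limma; exact two-sided permutation p = 0.2). A second Keap1 probe set, 17515128, gave a difference of -0.18 at a lower signal (3.36 ± 0.21 against 3.55 ± 0.16, SD, n = 3). Keap1 was the only one of the 8 with 2 probe sets, and both differences were negative.

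Sqstm1, which encodes p62, had the same 3 high arrays as Nfe2l1. Its values were 10.28, 9.56 and 10.32 with Htt siRNA and 10.27, 9.84 and 9.89 with scramble. These were Htt siRNA replicates 1 and 3 and scramble replicate 1; the lowest array was Htt siRNA replicate 2 for Sqstm1 and scramble replicate 2 for Nfe2l1. The log2 fold change was 0.06 ± 0.22 (adjusted p = 0.943 in limma). Its sign turned under some alternatives: leaving out Htt siRNA replicate 2 gave 0.30, and leaving out replicate 3 of that group gave -0.07.

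Bach1, the repressor's gene, did not separate the groups either. It measured 5.41, 5.43 and 5.65 with Htt siRNA and 5.29, 5.41 and 5.71 with scramble. The lowest and the highest arrays were both controls. The log2 fold change was 0.03 ± 0.13 (adjusted p = 0.960 in limma), with a 95% interval from -0.28 to 0.33, and it was negative after arrays were centred on their medians (-0.04).

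The 3 small MAF genes encode the DNA-binding partners of NRF2, NRF1 and BACH1. Maff was at 4.17, 4.36 and 4.44 with Htt siRNA and at 4.45, 4.54 and 4.66 with scramble. Every knockdown array lay below every control, although Htt siRNA replicate 3 and scramble replicate 1 were almost equal. The log2 fold change was -0.22 ± 0.10, or 85.6% of control (95% interval 72.4% to 101%), and missed the threshold (adjusted p = 0.486 in limma). The exact two-sided permutation p was 0.1, the smallest that 3 against 3 arrays allow. Maff stayed negative in all 14 alternatives, between -0.29 and -0.15, with an adjusted p from 0.334 to 0.748 in limma. Some of these could not move its fold change: the replicate block, the trended prior and the restriction to genes above the median level. The mean of all probe sets could not either, since Maff has 1 probe set.

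Mafg had values of 4.86, 4.64 and 4.36 with Htt siRNA and 4.97, 4.52 and 4.61 with scramble. The groups overlapped over most of their range, and the log2 fold change was -0.08 ± 0.16 (adjusted p = 0.894 in limma). It was 0.06 without scramble replicate 1, so its sign rested on single arrays. Mafk read 5.84, 4.79 and 5.47 with Htt siRNA and 5.47, 4.95 and 4.98 with scramble. As for Nfe2l1 and Sqstm1, the 3 highest arrays were Htt siRNA replicates 1 and 3 and scramble replicate 1. The Mafk log2 fold change was 0.23 ± 0.26 (adjusted p = 0.782 in limma). Leaving out Htt siRNA replicate 2 gave 0.52, and leaving out replicate 1 of that group gave -0.01.

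**Figure D2:**
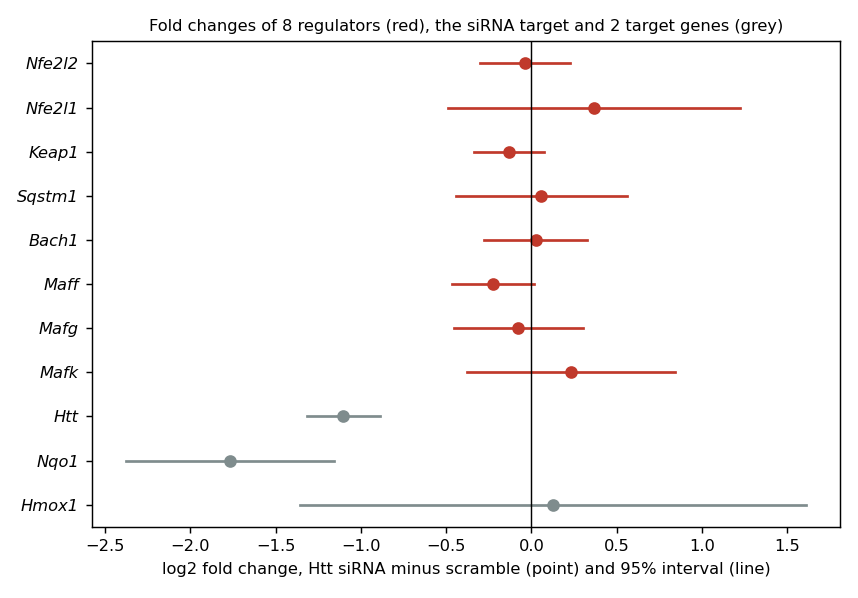
Log2 fold change (Htt siRNA minus scramble, x axis) with its 95% interval for the 8 regulators in red and for Htt, Nqo1 and Hmox1 in grey (limma, n = 3 per group). All 8 red intervals include 0, and those of Htt and Nqo1 do not.

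Nfe2l1, Sqstm1 and Mafk thus shared a split into 3 high and 3 low arrays that crosses the groups, though not the order within each side. Nfe2l2 had the same 3 highest arrays, over a smaller range (9.24 to 9.48, and 9.13 to 9.17 in the rest). The same split was seen in a list of endoplasmic reticulum and integrated stress response genes, such as Sdf2l1 and Hyou1, which encode helpers of protein folding. The level of this list (mean of 31 genes), relative to its mean over the 6 arrays, reached 0.70 (replicate 1) and 0.71 (replicate 3) in the knockdown and 0.71 in scramble replicate 1. It was -0.93 in Htt siRNA replicate 2 and -0.73 and -0.45 in scramble replicates 2 and 3. On the same scale Nfe2l1 was 0.49, -0.51 and 0.57 in the knockdown arrays and 0.53, -0.67 and -0.41 in the controls. Mafk was 0.59, -0.46 and 0.22, then 0.22, -0.30 and -0.27. Nfe2l1, Sqstm1 and Mafk lay above their mean in the arrays where the stress list did and below it elsewhere. Nfe2l2 did so too except in Htt siRNA replicate 3, where it was at -0.0044. For the other 5 regulators the largest distance of an array from the gene's mean was 0.31 (Mafg in scramble replicate 1).

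Adding the stress list's level as a term in limma narrowed the spread of Nfe2l1, Sqstm1 and Mafk, and also that of Nfe2l2. The term was chosen with the array pattern known, and the list holds none of the 8 genes. The residual SD went from 0.62 to 0.10 for Nfe2l1, from 0.34 to 0.07 for Sqstm1 and from 0.43 to 0.18 for Mafk. For Nfe2l2 it went from 0.15 to 0.08. It was not lower for the others: 0.08 for Keap1 in both fits, 0.18 and 0.21 for Bach1, 0.12 and 0.13 for Maff, and 0.25 and 0.26 for Mafg. With the narrower spread the Htt siRNA differences were still small: 0.14 ± 0.10 for Nfe2l1 (adjusted p = 0.615 in limma), -0.07 ± 0.09 for Sqstm1 (0.823) and 0.09 ± 0.12 for Mafk (0.829). In that fit 59 genes (0.266%) passed the adjusted threshold, and 0 of the 8 regulators did.

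**Figure D3:**
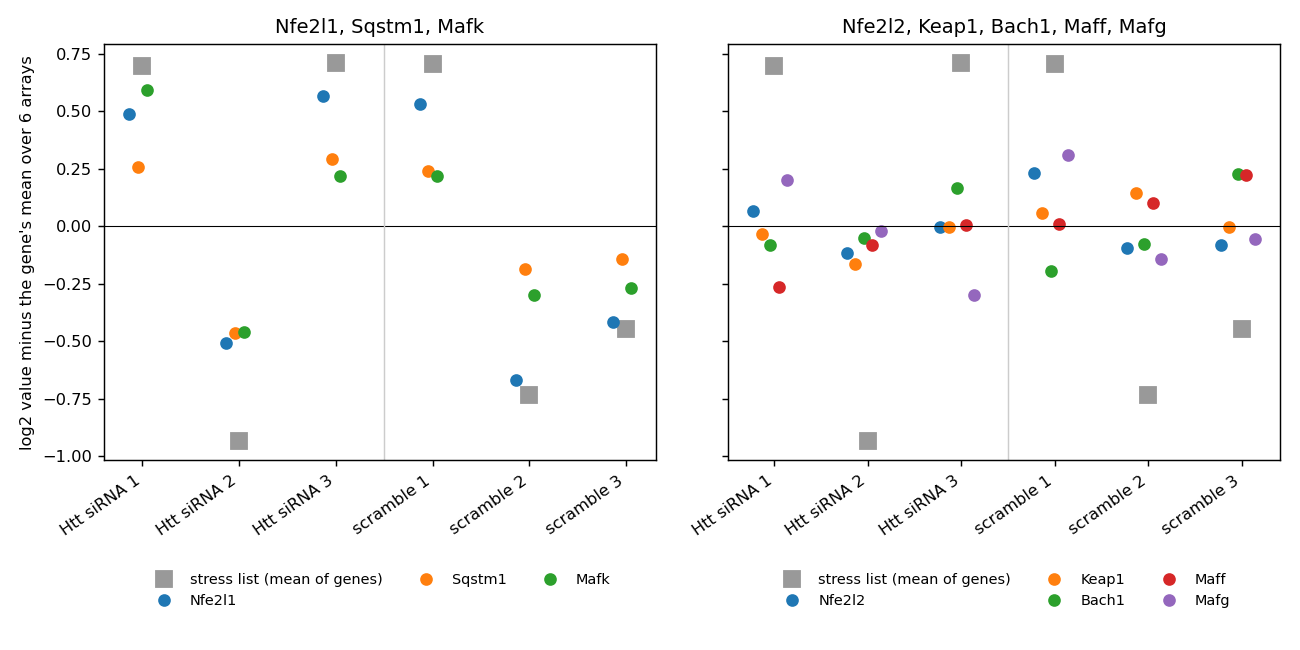
Log2 value minus the gene's mean over the 6 arrays (y axis) in each array (x axis; a line parts Htt siRNA from scramble), with the mean of 31 stress genes as grey squares in both panels. Nfe2l1, Sqstm1 and Mafk sit above 0 in Htt siRNA replicates 1 and 3 and scramble replicate 1, as the stress list does. The 5 other regulators reach at most 0.31 from 0, and among them Nfe2l2 has the same 3 highest arrays.

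For each regulator the genes with the most similar profile over the 6 arrays were found by Pearson's r among 10481 named genes above the median level. With 6 arrays that share 2 groups and the stress pattern, r is a description. Nfe2l1 was most like Klf9 (r = 0.997), a Krüppel-like factor that glucocorticoids induce, and Fzd4 (0.995), a Frizzled receptor. Sqstm1 was most like Pck2 (0.997), the mitochondrial phosphoenolpyruvate carboxykinase known as an ATF4 target, and Trub2 (0.995), a mitochondrial pseudouridine synthase. Mafk was closest to Gas6 (0.998), the ligand of TAM receptor kinases, and Car6 (0.996), a secreted carbonic anhydrase. Gas6 read only 2.83 to 3.17 over the arrays, near the median gene level of 2.95. Nfe2l1, Sqstm1 and Mafk had 164, 111 and 117 genes at r of 0.95 or more.

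The remaining regulators had fewer such neighbours. Nfe2l2 had 58, led by Zfp131 (0.998), a zinc finger protein, and Lpar4 (0.994), a lysophosphatidic acid receptor. Keap1 had 18, with Psapl1 (0.987) and Usp39 (0.984), a splicing factor, in front. Bach1 had 15, with Pnmal2 (0.997) and Cfap20 (0.992), a ciliary protein. Psapl1 (values of 2.88 to 3.58) and Pnmal2 (3.15 to 3.66) also had low signals. Maff had 21, with Snrpb (0.975), a core spliceosome protein, and Rad9a (0.972), a DNA damage checkpoint protein. Mafg had 25, with Tecpr2 (0.993), a protein of autophagy, and Trim23 (0.985), a ubiquitin ligase. Leaving out 1 array or rescaling moved 2 of 128 such values by 0.1 or more, to 0.858 for Keap1 with Psapl1 and to 0.895 for Mafk with Gas6.

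Target genes of the system can be set beside these values. Nqo1, the quinone reductase read as a reporter of NRF2, was at 5.84, 6.83 and 6.06 with Htt siRNA and at 7.93, 8.36 and 7.74 with scramble. Every knockdown array was lower than every control. The log2 fold change was -1.77 ± 0.26, 3.40-fold lower, and limma's adjusted p of 0.169 missed the threshold. Nqo1 passed it in some alternatives, among them without Htt siRNA replicate 2 (0.00778) and with the stress term (0.0252). It also passed with a block for the replicate number (unadjusted p = 2.91e-06 in limma). Taken as the difference Nqo1 minus Nfe2l2 within each array, the mean was lower in the knockdown by a value of -1.73 (exact two-sided permutation p = 0.1, the smallest possible). Nfe2l2 spanned only 0.35 over the arrays, less than the gap between the Nqo1 groups, so that p was fixed in advance. Subtracting any other regulator gave the same p, with differences from -2.13 (Nfe2l1) to -1.54 (Maff). The difference is thus nothing particular to Nfe2l2. Hmox1, the heme oxygenase that BACH1 represses, behaved differently. It read 7.71, 5.44 and 7.83 with Htt siRNA and 7.63, 6.77 and 6.19 with scramble, and so was highest in the arrays where Nfe2l1 was highest. Its log2 fold change was 0.13 ± 0.64 (adjusted p = 0.958 in limma), and its residual SD went from 1.08 to 0.46 with the stress term.

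Of 36 measured NRF2 targets, 31 had negative and 5 positive fold changes, with a median of -0.21 against 0.03 over all genes. At an unadjusted p under 0.05, 15 were lower (5.14% of all genes were) and 0 higher (5.72% of all genes), and 0 passed the adjusted threshold. These shares of all genes apply to every count at the unadjusted threshold in the other lists that comes from the fit to the 6 arrays as deposited. With 1 array left out, 717 to 1731 of the 22180 genes were higher and 687 to 1720 lower. After median centring 620 were higher and 1893 lower, and after repeated quantile normalization 1114 and 1115. The lower count lay between 11 and 15 when any 1 array was left out, and 5 targets passed the adjusted threshold without Htt siRNA replicate 2, where 2.43% of all genes did. Besides Nqo1, the smallest p belonged to Aldh3a1, an aldehyde dehydrogenase (-1.66 ± 0.21, adjusted p = 0.124 in limma), and Cbr3, a carbonyl reductase (-0.47 ± 0.08, adjusted p = 0.184). Cbr3 read only 3.06 to 3.61 over the arrays, near the median gene level of 2.95. The cystine transporter Slc7a11, which ATF4 also controls, had -1.27 ± 1.00. A lower level of such targets in these arrays was known when the list was written, so it is no independent evidence. Of 7 heme and iron genes repressed by BACH1, 2 were lower at the unadjusted threshold and 0 higher, with a median of -0.06. These were Fth1, ferritin heavy chain (-0.29 ± 0.09), and Slc48a1, a heme transporter (-0.31 ± 0.12). Both lists hold Hmox1 and Fth1. Without Htt siRNA replicate 2 the heme and iron count was 2 higher and 1 lower, and it was also 1 lower without Htt siRNA replicate 3 or scramble replicate 2.

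Genes that act on the regulators follow. Of 11 genes for NRF2 degradation, 0 were under the unadjusted threshold (median -0.03). The largest values were 0.53 ± 0.47 for Syvn1, the ligase of endoplasmic reticulum quality control, and 0.51 ± 0.24 for Usp11, a deubiquitinase. Among 9 proteins that bind KEAP1 or NRF2, 3 were lower and 1 higher (median -0.09). The DNA repair genes Brca1 (-1.21 ± 0.29) and Palb2 (-0.58 ± 0.15) and the replication gene Mcm3 (-1.28 ± 0.45) were lower, and Amer1, a Wnt pathway scaffold, was higher (0.35 ± 0.12). Palb2 had a low signal (2.99 to 3.85 over the arrays). The Amer1 call was lost without Htt siRNA replicate 2 or 3 or scramble replicate 1 or 2. Genes of S phase were also lower, 13 of 15 at the unadjusted threshold (median -1.01), with Cdc6 (-1.29 ± 0.33), Mcm6 (-1.07 ± 0.32) and Mcm2 (-1.01 ± 0.31) first. That count was 3 without scramble replicate 2, 4 without Htt siRNA replicate 1 or 3 and 6 without scramble replicate 3. The S phase level, relative to its mean, was -1.04, 0.33 and -0.74 in the knockdown arrays and 0.13, 0.79 and 0.53 in the controls. The groups thus overlapped, and 2 of the 15 genes had groups that did not. Mcm3 belongs to both lists, and the part of the S phase level in the lower value of Brca1 was not tested.

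Of 14 other factors of the CNC, large MAF and AP-1 families, 1 was higher at the unadjusted threshold and 0 lower (median 0.11): Maf (c-MAF), at 0.21 ± 0.09. Dropping Htt siRNA replicate 2 kept that call, and dropping any of the remaining 5 arrays lost it. Maf also had a low signal (3.21 to 3.57 over the arrays). NRF1 is freed and cut by a set of proteins of which 11 were measured, 0 under the unadjusted threshold (median 0.00). Sel1l, the partner of Syvn1, had the largest value (0.70 ± 0.44), and its highest arrays were the 3 in which Nfe2l1 was highest. Sel1l is also one of the stress genes, and Syvn1 is also in the degradation list. Of 32 proteasome genes, which NRF1 is known to drive, 28 had negative and 4 positive fold changes (9261 and 12919 over all genes). Groups did not overlap in 8 downwards and 1 upwards (5.91% and 10.1% of all genes). At the unadjusted threshold 4 were lower and 1 higher (median -0.12), led by Psmd11 (-0.27 ± 0.10), Psmb3 (0.29 ± 0.11) and Psmd14 (-0.32 ± 0.12). Psmb3 averaged only 4.30 with Htt siRNA and 4.02 with scramble, where the list averaged 7.41 and 7.51. After median centring 9 proteasome genes were lower at the unadjusted threshold. The number was 7 without Htt siRNA replicate 2 and 1 without either other knockdown array. It was 3 without scramble replicate 1 and 0 without either other control.

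Of 17 autophagy partners of p62, 2 were higher at the unadjusted threshold, where 5.72% of all genes were, and 0 lower (median 0.12); so small a count is not a result about the list. These were Calcoco1, a receptor for autophagy of the endoplasmic reticulum (0.60 ± 0.19), and Tollip, an adaptor (0.22 ± 0.09). The higher count was 4 without scramble replicate 3 or after repeated quantile normalization, 1 without scramble replicate 2, and 1 or 0 without replicate 1 or 3 of the knockdown, in that order. Of 13 coactivators and modulators of NRF2, 1 was lower and 0 higher (median -0.04). This was Smarca4, the BRG1 ATPase that assists NRF2 at Hmox1 (-0.31 ± 0.09), and the lower count was 3 without Htt siRNA replicate 2. Of the 31 stress genes, 0 were under the unadjusted threshold (median 0.26), with 1.02 ± 0.87 for Sdf2l1 and 0.85 ± 0.58 for Hyou1; without Htt siRNA replicate 2, 13 were higher and the median was 0.73, while without scramble replicate 2 the median was -0.02. All adjusted p-values of the genes named in these lists were above 0.05 in the fit to the 6 arrays.

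**Figure D4:**
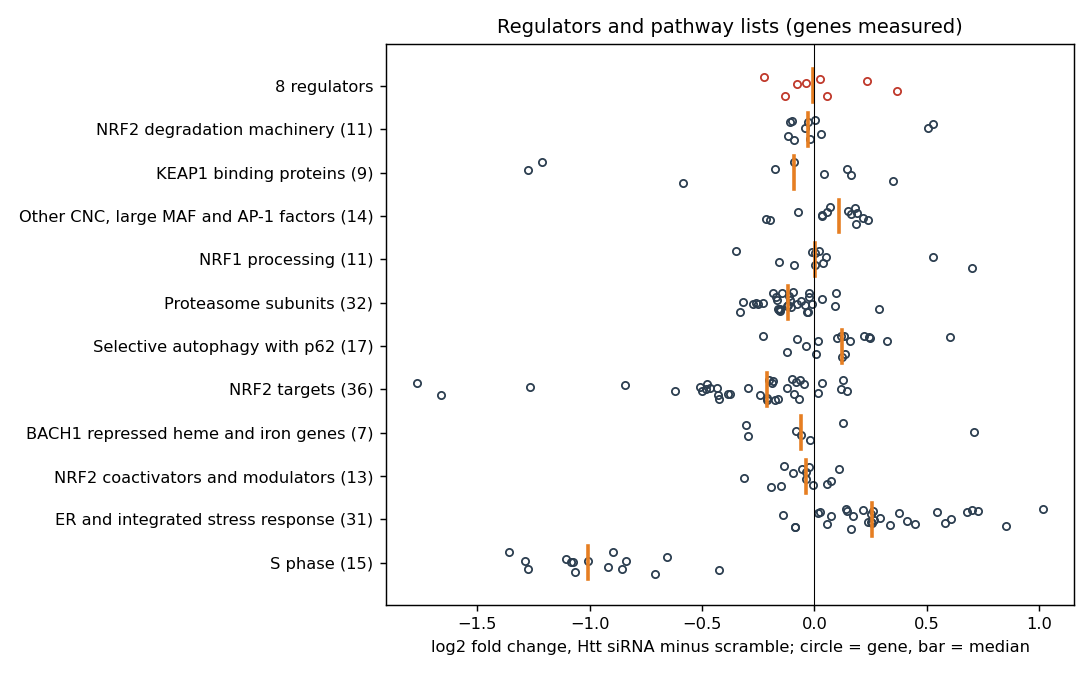
Log2 fold change (Htt siRNA minus scramble, x axis) of each gene in the 8 regulators (red) and in each list, with the number of genes measured; bars are medians and the vertical spread within a row has no meaning. The regulators lie between -0.22 and 0.37, while NRF2 targets have a median of -0.21 and S phase genes of -1.01.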

How the data were processed

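Expression was deposited by the authors as log2 units, in 1 table covering 41345 probe sets and 6 arrays; the submitters' processing notes name RMA and affy, without versions. Array medians were 2.59 to 2.67 and no value was missing. RMA equalises arrays and compresses weak signals, and the table holds no detection calls. The platform annotation gave 23521 probe sets 1 symbol and 1814 several; 16010 are unnamed here. The brightest probe set stood for each of 22180 genes. No genome build is given for the array, so coordinates belong to RefSeq's promoters alone.

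Limma 3.58.1 (R 4.3.3, lmFit, eBayes, group as the only term) was fitted to all genes, and its code was checked on simulated data. The simulation capped the spread and planted changes larger than that of any regulator. It therefore cannot say how small a change would have been called here. P-values are two-sided and Benjamini-Hochberg adjusted, with a threshold of 0.05. Python 3.11.15 and pandas 2.3.3 made tables, matplotlib 3.10.9 figures. The 8 genes, 17 gene lists, naming rule and 14 alternatives were chosen with earlier results of these data known. By that rule each list gives up to 3 genes of smallest unadjusted p under 0.05 above the median level or, with none, the 2 largest fold changes, and each regulator its 2 most similar genes; Nqo1, Hmox1 and Htt are always named. Mcm3, Slc7a11 and the second Keap1 probe set were added after their values were seen. Precision is limited by the small number of arrays.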

Additional observations from a re-analysis of the deposited data

How the results depend on the processing

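Over the 14 alternatives, 0 of the 8 regulators passed the adjusted threshold in limma, and Nfe2l1, Keap1 and Maff kept their sign. For any gene, Htt included, the replicate block, the trended prior and the restriction to genes above the median level leave the fold change as it was. Among the 8, the mean of all probe sets could move only Keap1. An unchanged sign in those settings was fixed in advance. Nfe2l2 turned positive with array weights (0.0074), and ran from -0.093 to 0.070 when 1 array was left out. Bach1 was -0.037 with centred arrays and -0.020 with array weights, and -0.064 to 0.15 with 1 array left out. Mafg ran from -0.20 to 0.061 and Mafk from -0.0053 to 0.52 in the same way. Sqstm1 ran from -0.075 to 0.30, and was -0.0044 with centred arrays and -0.067 with the stress list as a covariate. Hmox1 was -0.24 with that covariate, and -0.29 to 0.90 with 1 array left out. Regulators under the unadjusted threshold numbered 1 with centred arrays, array weights or the replicate block (Maff each time) and 0 to 1 with 1 array left out. Over all genes, 1520 were higher and 1484 lower at that threshold with array weights, and 1597 and 1480 with the replicate block. The all-gene counts for centring and with 1 array left out are given below. Regulators with separate groups numbered 2 with centred arrays and 1 to 3 with 1 array left out. The share of all genes with separate groups was not counted there, and fewer arrays separate more easily. Those numbers are therefore not a result about the regulators. The causes were not tested.

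Htt passed the adjusted threshold with a log2 fold change of -1.04 after repeated quantile normalization, -1.16 with centred arrays, -1.11 with array weights, -1.10 among genes above the median level, -1.10 with the replicate block, -1.10 with a trended robust prior and -1.11 with the stress covariate; with 1 array left out it lay between -1.16 and -1.06 and passed only without Htt siRNA replicate 2. Counts past the adjusted threshold over all genes were 540 without Htt siRNA replicate 2, 98 with the replicate block, 59 with the stress covariate, 4 with the trended prior, 3 with either rescaling or above the median level, 1 with array weights or without scramble replicate 1, and 0 otherwise. Centring split the genes under the unadjusted threshold 620 higher and 1893 lower, against 1269 and 1140 as deposited. With 1 array left out these counts ran from 717 to 1731 higher and from 687 to 1720 lower, and they were 517 and 845 above the median level, where fewer genes were tested. Over the lists, all-gene counts and named genes outside the regulators and Htt, 98 values moved, 15 came to pass the adjusted threshold, 4 (Hmox1) changed sign and 851 did none of these.

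Replicate numbers are shared by the titles, and same-numbered arrays correlated in their deviations at 0.35, 0.36 and 0.01. Htt siRNA replicates 1 and 2 correlated best with the control of their own number, and Htt siRNA replicate 3 with scramble replicate 1 (0.22). Whether same-numbered arrays share an origin is not given and was not tested, and the main fit has no term for it.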
